A study of Mus musculus with 2 samples.

Results

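The endothelial marker genes Pecam1, Cdh5, Kdr, Flt1, Tek, Tie1, Emcn, Egfl7, Esam and Sox18 were examined in cultured embryonic mouse ureters, the tubes that carry urine from the kidney to the bladder. The members were all non-control probes whose gene name in the scanner files is 1 of these 10 symbols. They had 13 probes, of which 12 passed the filter on dim probes, and all 10 genes were among the 22311 genes or unnamed features tested. Ureters came from wild-type NMRI embryos of mixed sex at stage E13.75 and were kept for 18 h on transwell membranes. The medium of the treated cultures held 10 µg/ml NOGGIN, a secreted antagonist that captures bone morphogenetic proteins (BMPs) before they can reach a receptor, and that of the control cultures held none. RNA of 1 control and 1 NOGGIN sample was read on each of 2 arrays with 2 dyes, which were swapped on the second array. The organ was explanted before culture, so its vessels had no blood flow. Separate litters or cultures are not stated for the numbered pairs, so p-values measure only the spread between these samples, which may be technical. The number of arrays limits the precision.

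Endothelial cells hold to each other through adhesion molecules such as VE-cadherin and PECAM-1 and follow growth factor cues through the VEGF receptors and the TIE receptors. VEGF drives vessel sprouting through the receptor encoded by Kdr, and angiopoietins act on the receptor encoded by Tek to settle or loosen the vessel wall. In a developing ureter, thin vessels run in the outer mesenchymal coat. The arrays read RNA of the ureter as a whole and do not tell which cells gave the transcripts of these genes. The comparison asks how transcripts of the ureter differ when BMP signalling is blocked.

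The regulatory DNA of these genes is shown first because endothelial promoters and enhancers are known for ETS factor motifs, which have the core GGAA. In the RefSeq promoter table (assembly GRCm38.p6, 250 bases before each gene start), 6 of the 10 members matched: Kdr, Flt1, Tek, Tie1, Emcn and Egfl7. They had 8 windows, because Egfl7 has 3 starts. The ETS motif CAGGAA, searched on both strands, lay in 5 of these 8 windows, those of Tek, Tie1, Emcn and Egfl7, and in 25.7% of all 32817 windows. These windows are printed for the members that hold it, with capitals marking CAGGAA, on this strand or as its reverse complement. For Egfl7 the window of the first start is given. Emcn lies at chr3:137340828-137341077 (+), Egfl7 at chr2:26580833-26581082 (+), Tek at chr4:94739039-94739288 (+) and Tie1 at chr4:118489850-118490099 (-), all in GRCm38.p6.
Emcn: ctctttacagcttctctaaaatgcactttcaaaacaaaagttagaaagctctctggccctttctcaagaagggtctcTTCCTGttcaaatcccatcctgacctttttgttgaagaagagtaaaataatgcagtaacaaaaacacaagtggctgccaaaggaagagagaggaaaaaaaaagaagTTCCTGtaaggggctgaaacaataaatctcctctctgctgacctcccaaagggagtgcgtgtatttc
Egfl7: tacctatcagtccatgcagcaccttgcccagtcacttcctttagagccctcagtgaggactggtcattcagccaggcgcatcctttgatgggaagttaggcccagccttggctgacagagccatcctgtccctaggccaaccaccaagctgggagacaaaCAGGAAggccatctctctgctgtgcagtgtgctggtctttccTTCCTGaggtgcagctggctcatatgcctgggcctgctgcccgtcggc
Tek: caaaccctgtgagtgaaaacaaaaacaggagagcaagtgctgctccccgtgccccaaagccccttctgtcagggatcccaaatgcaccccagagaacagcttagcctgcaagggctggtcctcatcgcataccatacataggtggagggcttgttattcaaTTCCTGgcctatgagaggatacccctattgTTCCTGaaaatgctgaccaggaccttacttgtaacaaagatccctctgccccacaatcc
Tie1: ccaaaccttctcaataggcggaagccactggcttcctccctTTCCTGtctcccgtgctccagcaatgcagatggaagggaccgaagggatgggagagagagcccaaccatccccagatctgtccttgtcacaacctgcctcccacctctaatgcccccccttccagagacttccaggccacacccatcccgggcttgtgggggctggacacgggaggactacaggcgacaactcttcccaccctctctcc
Within Emcn and Egfl7 a copy of the motif was part of AACAGGAA, a core shared by FOX and ETS composite sites. That longer run lay in 2 of the 8 windows and in 2.25% of all windows. The other ETS motif, CCGGAA, lay in 1 of the 8, that of Kdr, and in 12% of all windows. The SOX motif ACAAAG lay in 2 of the 8, of Tek and of an Egfl7 start whose window is not printed, against 16.5% of all windows. The SMAD motifs GGCGCC (9.59% of all windows) and GTCTAGAC (0.168%) lay in 0 of the 8. Each match describes letters in these windows. The motifs were chosen with results of these data known.

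Every member was detected in every channel. The brightest probe of each gene was well above local background in all 4 of its spots in all 4 samples. Transcripts of these marker genes were thus measured in control and NOGGIN ureters alike. Of all 39429 probes, between 65.3% and 76.9% were well above background in a channel, with the higher share in the green channel on both arrays. Levels of different probes are not compared, since probes differ in how strongly they bind.

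The labels and the authors' table differ on which channel held which sample, and signs are given by the dye labels throughout. By these labels control RNA was red (AlexaFluor647) and NOGGIN RNA green (AlexaFluor555) on array 1, and the reverse on array 2. Id1, a transcription regulator induced by BMP signalling, then had a log2 ratio of 2.14 ± 0.09 (SD, n = 2) for NOGGIN over control. The authors' deposited table gives its probe signed fold changes of -4.65 and -4.53 under titles that set NOGGIN against control, which is the opposite direction. Were the labels the other way round, all signs would flip at unaltered size.

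No endothelial marker passed a test of the difference between NOGGIN and control. By limma's moderated test, 0 of 10 members passed an adjusted p of 0.05 (Benjamini-Hochberg over all features), and so did 0% of all features. At an unadjusted p under 0.05 there were 0 members and 1348 of the 22311 features. The fold rule calls a gene that is 1.5-fold or more apart on both arrays with the same sign. By it, 0 members were called, against 2.19% of all features (0.941% higher and 1.25% lower in the channel labelled NOGGIN). The mean log2 ratios of the members ran from -0.20 to 0.40, with a median of 0.18 beside -0.006 for all features. Their 95% intervals from limma all held 0 and together spanned -0.80 to 0.90. On the linear scale they ran from 0.576-fold to 1.87-fold, so 2-fold in either direction lay outside each of them. These intervals hold for the brightest probes after loess normalization. They rest on 2 ratios that may be technical repeats, with 1 residual and 4.35 prior degrees of freedom. They therefore do not exclude a 2-fold change between separate cultures. With arrays centred on their medians in place of loess, Tie1 had 0.60 and -1.05, past 2-fold on array 2. A missed threshold does not show that the genes were equal in the channels. In bulk tissue, a difference in the number of endothelial cells and a difference in RNA per cell cannot be told apart.

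**Figure D1:**
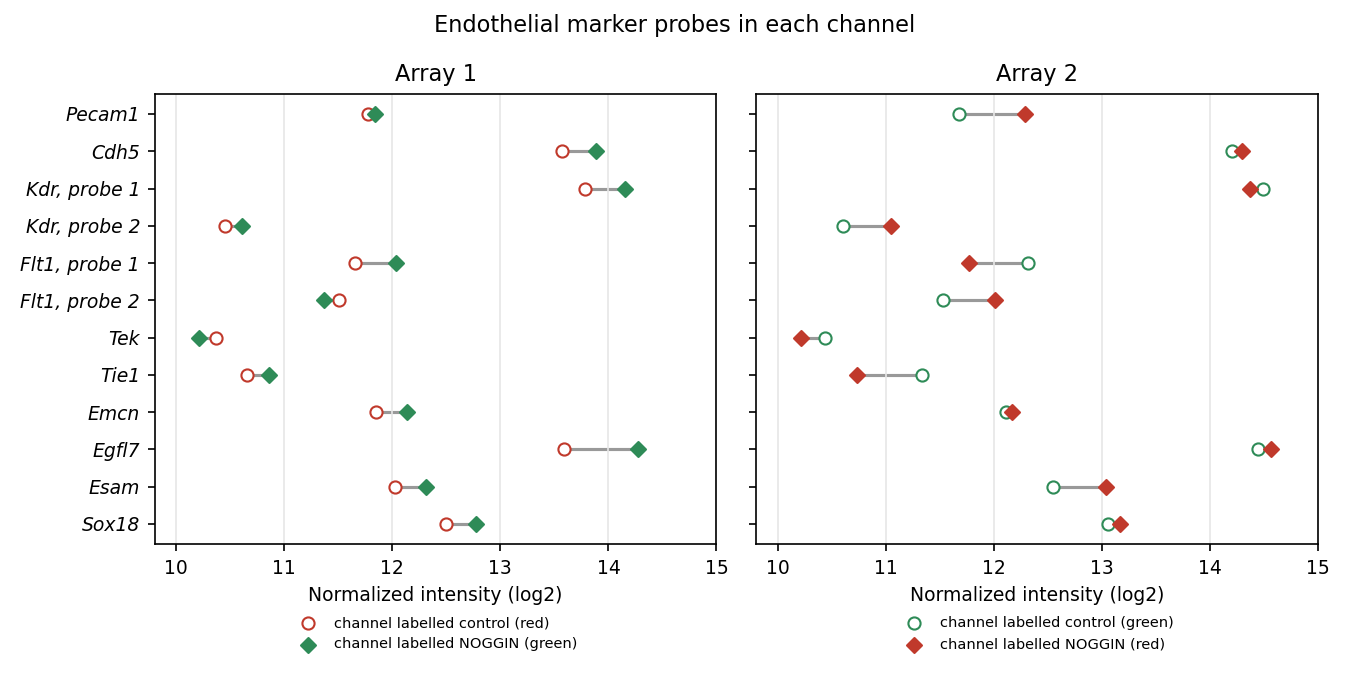
Normalized log2 intensity (horizontal axis) of the 12 kept probes of the 10 endothelial markers on array 1 (left) and array 2 (right). Circles are the channel labelled control and diamonds the channel labelled NOGGIN, coloured by the dye it carried, and grey lines join the channels of an array; Pecam1 has close values on array 1 (11.84 and 11.78) and separate ones on array 2 (12.29 and 11.68).

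The adhesion and surface genes Cdh5, Esam, Emcn and Pecam1 had log2 ratios above 0 on both arrays, of which only Esam and Pecam1 kept this when arrays were centred on their medians in place of loess. Esam encodes an immunoglobulin-like molecule of endothelial tight junctions, and its probe lies on chromosome 9 (37345795 to 37345854, mm9). Its raw mean signals were 7020 (NOGGIN) and 3001 (control) on array 1 and 6460 and 7826 on array 2, before the dyes were normalized. The green channel was the brighter in both pairs at that stage. After normalization its log2 intensity was 12.31 in NOGGIN and 12.02 in control on array 1, and 13.04 and 12.55 on array 2. The NOGGIN value lay above its own control on each array, while the groups overlapped across arrays. The log2 ratios were 0.29 and 0.49, with a mean of 0.39 ± 0.15 (SD, n = 2) and an interval of -0.03 to 0.81. Esam had the lowest p of the members (limma, unadjusted p = 0.0615, adjusted p = 0.885).

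Pecam1, the adhesion molecule CD31 (probe on chromosome 11, 106540864 to 106540923, mm9), was read at 11.84 (NOGGIN) and 11.78 (control) on array 1 and at 12.29 and 11.68 on array 2. Its log2 ratio was 0.07 on array 1 and 0.61 on array 2 after loess. That split depended on the normalization: median centring gave 0.46 and 0.15, and the scanner software's processed signals 0.24 and 0.41. Its mean was 0.34 ± 0.38 (SD, n = 2; interval -0.16 to 0.84). Cdh5 encodes VE-cadherin, the cadherin of endothelial adherens junctions (probe on chromosome 8, 106668159 to 106668218, mm9). Its levels were 13.89 (NOGGIN) and 13.57 (control) on array 1 and 14.30 and 14.20 on array 2, so the larger gap was on array 1. The log2 ratios of Cdh5 were 0.32 and 0.10, with a mean of 0.21 ± 0.16 (SD, n = 2; interval -0.21 to 0.63). Emcn, the sialomucin endomucin of veins and capillaries (chromosome 3, 137086389 to 137086448, mm9), was read at 12.14 and 11.85 on array 1 and at 12.17 and 12.11 on array 2, NOGGIN first. The array 2 pair of Emcn all but met. Its log2 ratios were 0.29 and 0.05, with a mean of 0.17 ± 0.17 (SD, n = 2; interval -0.25 to 0.59).

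Egfl7 and Sox18 were also above 0 on both arrays, though not with median centring, where array 2 gave -0.17 and -0.32. Egfl7 encodes a secreted protein that endothelial cells lay into their matrix during tube formation (probe on chromosome 2, 26448142 to 26448201, mm9). Its levels were 14.27 (NOGGIN) and 13.59 (control) on array 1 and 14.56 and 14.45 on array 2. The array 1 pair was well apart and the array 2 pair was close. The log2 ratio of Egfl7 was 0.68 on array 1, the 1 member past 1.5-fold there, and 0.12 on array 2. The mean was 0.40 ± 0.40 (SD, n = 2; interval -0.11 to 0.90; limma, unadjusted p = 0.0993). Sox18, a SOXF transcription factor of endothelial and lymphatic differentiation (chromosome 2, 181404789 to 181404848, mm9), was read at 12.77 and 12.50 on array 1 and at 13.17 and 13.06 on array 2, NOGGIN first. Its log2 ratios were 0.27 and 0.11, with a mean of 0.19 ± 0.11 (SD, n = 2; interval -0.22 to 0.60). Both pairs of Sox18 had the NOGGIN value above its control by a quantity smaller than the shift between the arrays.

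The 4 receptor kinases had lower mean ratios, by their brightest probes, than the other members. This did not hold with the other Kdr probe, whose mean of 0.31 lay above those of Cdh5 (0.21), Sox18 (0.19) and Emcn (0.17). Tek encodes TIE2, the angiopoietin receptor (probe on chromosome 4, 94540624 to 94540683, mm9). Its levels were 10.21 (NOGGIN) and 10.37 (control) on array 1 and 10.21 and 10.43 on array 2. Tek was the 1 member below 0 on both arrays (0.22 and -0.63 with median centring). After loess its NOGGIN and control values did not overlap, nor did those of Pecam1 and Emcn, where NOGGIN was the higher. How often this holds over all features was not counted. The log2 ratios of Tek were -0.16 and -0.22, with a mean of -0.19 ± 0.04 (SD, n = 2), the smallest SD among the members. Its interval of -0.59 to 0.21 held 0 (limma, unadjusted p = 0.283).

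Kdr, Flt1 and Tie1 had opposite signs on the arrays, each above 0 on array 1 and below 0 on array 2. Tie1 encodes an orphan partner of TIE2 (chromosome 4, 118144132 to 118144191, mm9), and its log2 intensity was 10.86 (NOGGIN) and 10.65 (control) on array 1 and 10.73 and 11.34 on array 2. Its log2 ratios of 0.20 and -0.61 gave a mean of -0.20 ± 0.57 (SD, n = 2; interval -0.80 to 0.40). The array 2 value of Tie1 was past 1.5-fold and its array 1 value was not. Flt1 encodes VEGFR1, which binds VEGF and acts largely as a decoy (chromosome 5, 148373791 to 148373850, mm9). The raw mean signals of its brightest probe were 5824 (NOGGIN) and 2362 (control) on array 1 and 2689 and 6693 on array 2. After normalization the levels were 12.03 and 11.66 on array 1 and 11.77 and 12.32 on array 2. Flt1 was thus higher in NOGGIN on array 1 and lower on array 2, at log2 ratios of 0.38 and -0.55 with a mean of -0.08 ± 0.65 (SD, n = 2; interval -0.73 to 0.56). Kdr encodes VEGFR2, the main signalling receptor of VEGF (chromosome 5, 76329309 to 76329368, mm9), and was read at 14.15 and 13.78 on array 1 and at 14.37 and 14.49 on array 2, NOGGIN first. Its log2 ratios were 0.37 and -0.12, with a mean of 0.12 ± 0.34 (SD, n = 2; interval -0.36 to 0.60). In all 3 genes the green channel of the brightest probe was the higher on both arrays after normalization. A dye response of the probe and a difference between the culture pairs cannot be told apart here.

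**Figure D2:**
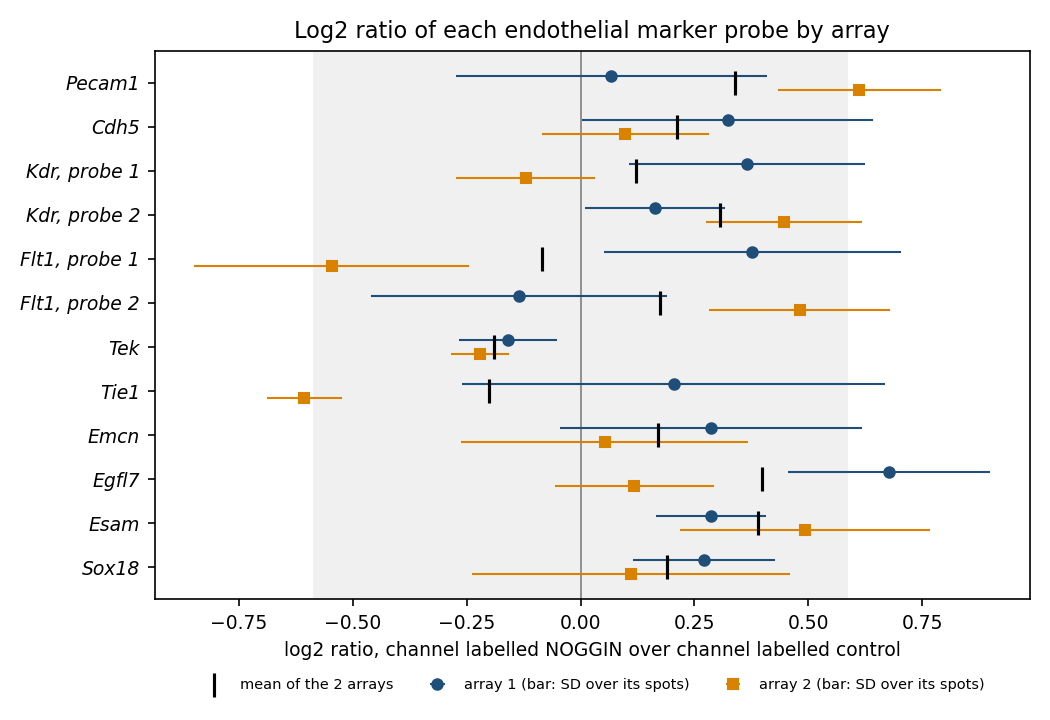
Log2 ratio of NOGGIN over control by the dye labels (horizontal axis) of each kept endothelial marker probe, with circles for array 1, squares for array 2, bars for the SD over the spots of an array and black ticks for the mean of the arrays. The grey band is the range within 1.5-fold; Egfl7 leaves it on array 1, Pecam1 and Tie1 leave it on array 2, and the mean of every probe lies inside.

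Kdr and Flt1 had further probes, and these did not share the pattern of the brightest. The other Kdr probe (76330395 to 76330454 on chromosome 5, mm9) was read at 10.61 (NOGGIN) and 10.45 (control) on array 1 and at 11.05 and 10.61 on array 2. It was above 0 on both arrays, at log2 ratios of 0.16 and 0.45, with a mean of 0.31 ± 0.20 (SD, n = 2). The other kept Flt1 probe (148446872 to 148446931, mm9) was read at 11.37 and 11.50 on array 1 and at 12.01 and 11.53 on array 2, NOGGIN first. Its log2 ratios were -0.13 and 0.48, each opposite in sign to the brightest Flt1 probe, with a mean of 0.17 ± 0.44 (SD, n = 2). With the mean over the kept probes in place of the brightest, Flt1 came to 0.04 and so turned sign. A further Flt1 probe (148465976 to 148466035, mm9) was not kept, being well above background in at most 2 of 4 spots in any channel, and gives no level. Which exon each probe reads was not analysed here.

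For 7 of 10 members the arrays were further apart from each other than the mean was from 0. The share of all features was not counted. Any feature with opposite signs on the arrays (56.3% of all) meets this condition, so the count is no trait of the members. The ratio of array 1 minus that of array 2 was 0.92 for Flt1, 0.81 for Tie1, 0.56 for Egfl7, 0.49 for Kdr and -0.54 for Pecam1. The median absolute gap was 0.36 over the members and 0.26 over all features. On array 1, 9 of 10 members lay above 0, against 54.6% of all features, and on array 2, 6 of 10 did, against 42.4%. On both arrays 6 members were above 0 (20.4% of all features) and 1 was below 0 (23.3%), and 3 had opposite signs (56.3%). Past 1.5-fold there was 1 member on array 1 (4.31% of all features) and there were 2 on array 2 (11.8%), and none was the same gene. These sign counts were added after the values had been seen, and that of 6 rests on the loess step. With each array centred on its median in place of loess, Pecam1 and Esam were the 2 members above 0 on both arrays, against 11.5% of all features, and the gap between the arrays grew to 1.64 for Tie1 and 1.77 for Flt1. The members share 2 arrays and their loess curves, so they are not independent of each other.

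**Figure D3:**
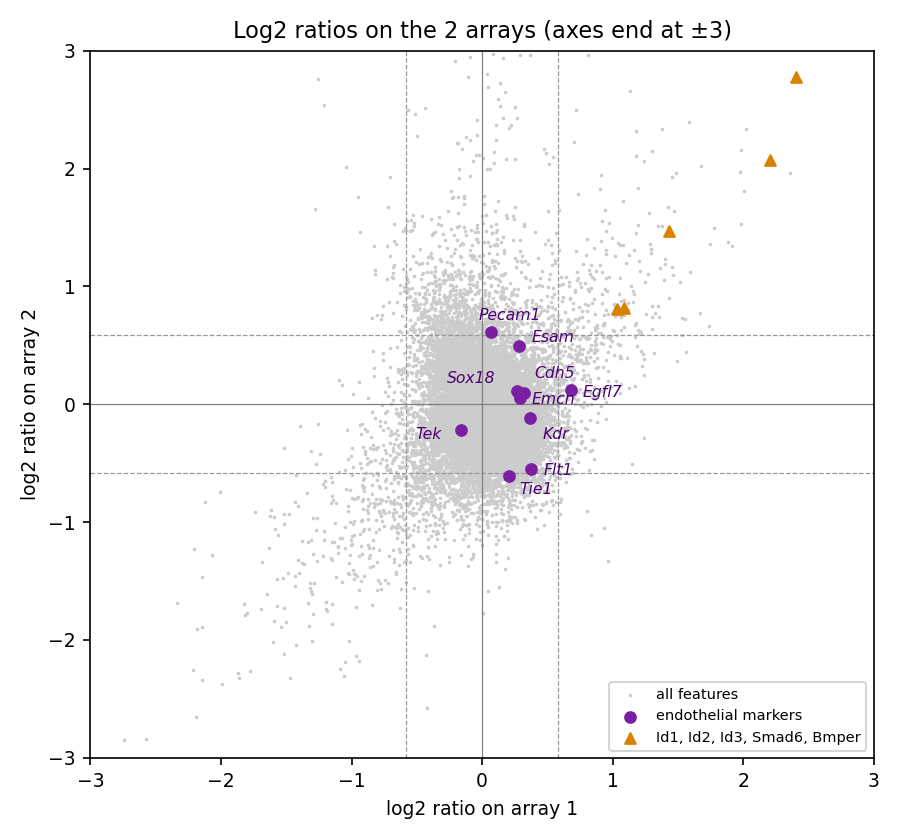
Log2 ratio on array 1 (horizontal) against array 2 (vertical) for all features inside ±3 (grey), the brightest probe of each of the 10 endothelial markers (violet) and the BMP target genes Id1, Id2, Id3, Smad6 and Bmper (orange triangles); 28 features lie outside the axes. Dashed lines mark 1.5-fold, and no violet point is beyond them on both arrays, while the 5 triangles are.

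The order of the members by mean log2 ratio was Egfl7, Esam, Pecam1, Cdh5, Sox18, Emcn, Kdr, Flt1, Tek and Tie1 from the highest to the lowest. All 10 intervals overlapped each other, and differences between members were not tested. In the authors' deposited table the signed fold changes of the brightest probes lay between -1.44 and 1.45, and none reached 1.5-fold. There Egfl7 had -1.44 and -1.28, Esam -1.15 and -1.35, Pecam1 -1.17 and -1.35, and Tek 1.23 and 1.15 on arrays 1 and 2. Turned to the dye-label direction, the table has the same 6 members above 0 on both arrays. Flt1 had -1.27 and 1.45 in that table and Tie1 -1.13 and 1.37, so the split between the arrays was present in the authors' values as well.

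Other genes of the endothelium were described by lists, each without the 10 members. Of 38 measured endothelial surface and junction genes, the fold rule called 1 higher and 1 lower, 25 were above 0 and 8 below 0 on both arrays, and the median log2 ratio was 0.20. Over all features 0.941% were called higher and 1.25% lower, and 20.4% were above 0 and 23.3% below 0 on both arrays, shares that hold for the lists that follow too. With median centring 11 of the 38 were above 0 and 3 below 0 on both arrays, against 11.5% of all features above 0. The 1 lower gene was Thbd, thrombomodulin, the receptor on vessel walls that turns thrombin to an anticoagulant role, with -2.34 and -1.68 and a mean of -2.01 ± 0.46 (SD, n = 2). Thbd is also made outside the endothelium, and the array does not tell the source. The 1 higher gene was Mmrn1, a multimerin stored in endothelial granules and platelets, at 0.80 ± 0.01 (SD, n = 2), or 0.39 on array 2 with median centring. Esm1, a secreted proteoglycan of sprouting tip cells, had 0.57 and 1.46, and so missed the rule on array 1. Icam2, an adhesion molecule of resting endothelium, had 0.55 and 0.72, and Cldn5, the main claudin of vessels, had 0.35 and 0.55. Cd34, a surface sialomucin, had -0.06 and -0.71 with its brightest probe and a mean of -0.03 with the other. Plvap, of capillary diaphragms, had a mean of -0.26 ± 0.07 and Vwf, the clotting factor of endothelial granules, -0.27 ± 0.24 (SD, n = 2).

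Of 21 further endothelial transcription factors, the fold rule called 0 higher and 1 lower, 12 were above 0 and 2 below 0 on both arrays, and the median was 0.20. With median centring 3 were above 0 and 3 below 0 on both arrays, and without array 1 the median was 0.11. The lower gene was Klf4, a factor of quiescent endothelium and of many epithelia, at -0.72 ± 0.10 (SD, n = 2), or -0.36 on array 1 with median centring. Sox7, a SOXF relative of the member Sox18, had 0.57 and 0.58. Sox17, the other SOXF gene, had 0.12 and 0.41, with a mean of 0.57 from its other probe. All 3 SOXF genes thus lay above 0 on both arrays, and none passed the fold rule; with median centring Sox17 (-0.04) and Sox18 (-0.32) were below 0 on array 2. Hey1, a Notch and BMP target, had 0.48 and 0.80, and Bcl6b, an endothelial repressor, had 0.81 and 0.35. The ETS factors Fli1 and Erg had means of 0.38 ± 0.03 and 0.22 ± 0.40 (SD, n = 2), with Erg at -0.06 on array 1.

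Among the ligands and receptors of the VEGF, angiopoietin and apelin systems, 15 genes were measured besides the member receptors, with 1 higher, 1 lower and a median of 0.005. Angpt2, the angiopoietin that loosens vessels as an antagonist of TIE2 in many settings, was the lower one, at -0.60 and -1.07 with a mean of -0.83 ± 0.33 (SD, n = 2). Apela, a peptide ligand of the apelin receptor, was the higher one, at 0.77 and 0.74 with a mean of 0.75 ± 0.02 (SD, n = 2). Both missed the fold rule on 1 array with median centring, Angpt2 at -0.24 on array 1 and Apela at 0.35 on array 2, and neither passed the adjusted test (limma, adjusted p = 0.308 for Angpt2 and adjusted p = 0.270 for Apela). Angpt1, the TIE2 agonist, had 0.53 and 0.13. Aplnr, the apelin receptor of veins and sprouting tips, had 0.18 and -0.99. Ptprb, the phosphatase that acts on TIE2 and VE-cadherin, had 0.58 and 0.51, next to the member receptors Tek and Tie1 with means of -0.19 and -0.20. Vegfa, the main ligand of the Kdr and Flt1 receptors, had 0.02 and -0.27, and its co-receptor Nrp1 had -0.08 and 0.09. Vegfc, the lymphatic ligand, had -0.20 and 0.45, and its receptor Flt4 had 0.04 and 0.31, read well above background in 3 of 4 channels.

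Arterial and venous genes gave 0 of 18 by the fold rule and a median of 0.16, at 0.31 on array 1 and -0.07 on array 2. The axon guidance receptor Unc5b had 0.91 and 0.52, the arterial Notch ligand Dll4 0.55 and 0.20, and the connexin Gja4 a mean of 0.37 ± 0.13 (SD, n = 2). Nr2f2, the venous identity factor COUP-TFII that is also widespread in mesenchyme, had -0.26 and 0.05. Of 6 lymphatic genes 1 was lower by the rule, with a list median of -0.28 (-0.56 with both channels above background, 0.00062 with no filter on dim probes). That gene was Ccbe1, a secreted factor needed to activate VEGF-C, at -1.40 and -1.43, with means of -0.88 and -0.73 from its other probes. The array does not tell which cells made Ccbe1. Lyve1, a hyaluronan receptor of lymphatic endothelium and macrophages, had 0.44 and 0.54, and Prox1, the lymphatic master factor, had a mean of 0.00 ± 0.08 (SD, n = 2). Itga9 and Pdpn, both also found outside lymphatics, had means of -0.59 and -0.56.

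BMP9 and BMP10 reach endothelial cells from the blood or the heart and act through the receptor ALK1 (gene Acvrl1), its co-receptor endoglin (Eng) and BMPR2. In this list 8 of 16 measured genes were higher by the fold rule, 0 were lower and the median was 0.45. With median centring 5 were higher, and the median was 0.21 with no filter on dim probes and 0.69 with both channels above background. Those 8 were Id2 (2.59 ± 0.26), Smad9 (2.16 ± 0.28), Id1, Id3 (1.45 ± 0.03), Smad6 (0.95 ± 0.19), Bmper (0.92 ± 0.16), Smad7 and Tmem100, as means ± SD with n = 2. Id and SMAD genes answer to BMPs in many cell types and are no endothelial markers. By the dye labels these 8 genes were thus higher in the channel labelled for the BMP antagonist NOGGIN. The authors' table gives Id1 the opposite direction, and which of the 2 holds was not tested. Of the ligands, Gdf2, the gene of BMP9, was on the array but did not pass the filter on dim probes. Bmp10 was kept but was well above background in only 2 channels, with a mean of 0.03. Whether BMP9 or BMP10 had a part in the values of this list was not tested. Smad7 had 0.67 and 0.90 and Tmem100, an ALK1-dependent gene of arterial endothelium, had 0.73 and 0.66; both were named after their values had been seen. The receptors themselves were closer to 0 or below it, with means of 0.05 ± 0.18 for Acvrl1, 0.08 ± 0.11 for Bmpr2 and -0.44 ± 0.30 for Eng (SD, n = 2).

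**Figure D4:**
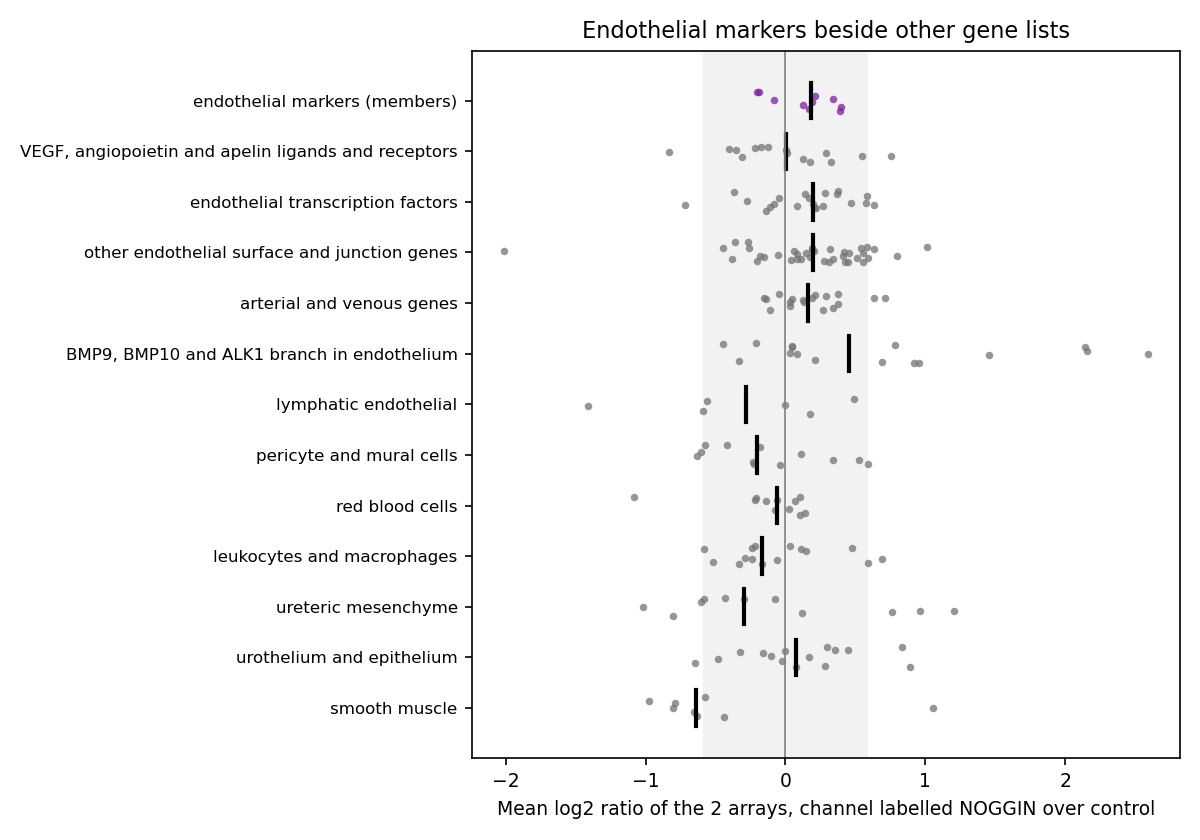
Mean log2 ratio over the arrays (horizontal axis) of each gene in the lists named on the vertical axis, with violet points for the endothelial markers, grey points for the other lists and black ticks for the medians. The grey band is the range within 1.5-fold; all 10 markers lie inside it with a median of 0.18, next to 0.45 for the BMP9, BMP10 and ALK1 list and -0.64 for smooth muscle.

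Markers of the other cells in the explant moved beside the members as follows, and their part in the members' values was not tested. Summed over the 10 members, the normalized linear intensity was 80601 (NOGGIN) and 61920 (control) on array 1 and 99241 and 95528 on array 2, ratios of 1.30 and 1.04. The summed level of the 12 pericyte and mural markers, the cells that wrap vessels, had ratios of 1.01 and 0.813. Of these 12 genes, 3 were above 0 and 6 below 0 on both arrays and 3 had opposite signs, as Pdgfrb did at 0.21 and -0.67 (log2). The 3 above 0, named after their values had been seen, were Rgs5 (0.27 and 0.78), Kcnj8 (0.33 and 0.85) and Abcc9 (0.43 and 0.25). The 6 below 0 had means of -0.63 (Des), -0.60 (Anpep), -0.57 (Myh11), -0.41 (Cspg4), -0.18 (Notch3) and -0.04 (Higd1b). The 11 red cell markers had summed ratios of 0.933 and 1.16, and the 15 leukocyte markers 0.943 and 1.06. On both arrays 2 red cell genes were above 0 and 3 below 0, while 1 leukocyte gene was above 0 and 8 below 0. All 3 sets of blood or vessel-associated cells therefore lay within 1.5-fold in sum on each array, and 0 pericyte or leukocyte genes and 1 red cell gene passed the fold rule. A sum follows its brightest probes, so counts are given with the sums of the other tissues. Markers of ureteric mesenchyme had summed ratios of 0.709 and 0.780 over 11 genes. On both arrays 3 of the 11 were above 0 and 6 below 0, with a list median of -0.30 (log2). The fold rule called 3 of the 11 higher (Sox9 at a mean of 1.21, Car3 at 0.96 and Tbx18 at 0.77) and 1 lower (Bmp4 at -1.02). Smooth muscle markers had summed ratios of 0.453 and 0.734 over 8 genes, with 3 lower by the rule and 1 higher, the smooth muscle regulator Myocd (1.17 and 0.94). Acta2, the smooth muscle actin among the brightest of them, had -1.39 and -0.18. Urothelial markers had summed ratios of 1.24 and 0.980 over 15 genes, with 1 higher and 0 lower. All of these markers were well above background in all 4 channels, none being at 0. The 17 interferon-induced genes stood apart on array 2, with summed ratios of 1.46 on array 1 and 11.0 on array 2, where the NOGGIN level was 187582 against 17061 in control. Their list median was 0.42 on array 1 and 3.15 on array 2, while that of the endothelial markers was 0.29 and 0.08.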

How the data were processed

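RNA of control and NOGGIN ureters was read on 2 arrays with 2 dyes each. The deposited spot intensity values were measured by the authors with Agilent Feature Extraction 10.7.3.1, per the submitters' processing notes, and the mean signals and background medians are not normalized. The authors' deposited table holds a signed score per probe, which on comparison with the scanner values is a linear fold change. On a log scale its correlation with the red to green ratio was 0.891 (array 1) and -0.943 (array 2), so it runs control over NOGGIN by the dye labels. Its medians were 1 on both arrays, and the sources used here do not give its normalization.

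In limma 3.58.1 (R 4.3.3), mean signals were background-corrected by normexp (offset 50), then loess was run within arrays giving control spots weight 0, which assumes that most genes do not differ. Controls and outlier-flagged spots (3.36% and 3.09%) were dropped, saturation affected 0 spots, and values of the 4 spots per probe were averaged. Slide and scan were common to the arrays and so form 1 batch. The filter kept probes with a share over 0.5 of spots well above background, on each array, in 1 channel or more (29649 of 39429). The brightest kept probe stood for a gene. Names were updated by accession through a GRCm38.p6 gene table, used for names only (28328 probes matched). Positions of probes are as the files list them (mm9).

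The ratio of the channel labelled NOGGIN over control was fitted with lmFit and eBayes, with 1 residual and 4.35 prior degrees of freedom. Tests were two-sided, with Benjamini-Hochberg adjustment over 22311 features. The gene test was run on simulated ratios first, and no value of that run is used here. Members and lists were chosen with earlier results of these data known. Named were all members, the up to 4 largest absolute mean log2 ratios of each endothelial list, genes past the 1.5-fold rule up to 6 a list, and a set of well-known vessel genes. Alternatives covered background, normalization, filter, outlier spots, spot summary, choice of probe, thresholds, variance options, the authors' values and single arrays. Figures were drawn with matplotlib 3.10.9.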

Additional observations from a re-analysis of the deposited data

How the results depend on the processing

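No member passed an adjusted p of 0.05 under any of the 11 alternatives of each member's fit, nor with limma's trend and robust options, nor at a threshold of 0.1, and none passed 2-fold on both arrays. The median of the members stayed above 0 under its 10 alternatives, at 0.14 to 0.20, and on each array alone (0.076 to 0.286). The count of members above 0 on both arrays went from 6 to 2 with median centring and to 7 with the mean over probes, where Kdr joined it. Past 1.5-fold with the same sign, the count was 0 on both arrays. On an array by itself the count was 1 to 2 in the main setting, and it depended on the normalization. With median centring more members passed on array 1, among them Egfl7 (0.92), Flt1 (0.77) and Emcn (0.67), and Tie1 passed on array 2 (-1.05). With processed signals Egfl7 (0.53 on array 1) and Tie1 (-0.45 on array 2) fell short. The sign of Flt1 turned with the mean over probes (0.045). On single arrays Kdr ran from -0.12 to 0.37, Flt1 from -0.55 to 0.38 and Tie1 from -0.61 to 0.20. List medians that turned sign were those of the VEGF list (-0.026 with processed signals, -0.042 with median centring, -0.0040 with scale normalization, -0.016 with flagged spots kept, -0.0033 with spot medians, -0.0028 with the authors' values and -0.019 to 0.041 on single arrays), of lymphatic genes (0.00062 with no filter), of red cell markers (0.00012 with the authors' values), and on single arrays of arterial and venous genes (-0.070 to 0.307) and urothelial markers (-0.0096 to 0.249). Medians that kept their sign but moved by over 1.5 times included those of the BMP9, BMP10 and ALK1 list (0.21 with no filter, 0.69 with both channels above background), of lymphatic genes (-0.56 with both channels), of transcription factors (0.11 without array 1), and of pericyte (-0.069) and leukocyte markers (-0.083) without array 2. Those of mesenchyme ran from -0.45 to -0.17 on single arrays and those of urothelium from 0.039 to 0.166 over the other alternatives. The red cell median (-0.058) also moved, between -0.10 and 0.00012. The cause of these shifts was not tested. Over all features, those past the adjusted p numbered 0 here, 35 with no background correction, 22 with flagged spots kept, 114 with median centring and 100 where both channels had to be above background, and those past the fold rule 488 here and 852 with processed signals. The fit was itself paired. Each array gave a ratio of NOGGIN over its own control, and the 2 ratios were fitted as a single group.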
